A study of Mus musculus with 2 samples.

Results

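Messages of red cell genes were present in RNA from embryonic mouse forebrain, and whole-tissue RNA does not say which cells they came from. The 9 genes described here are 7 hemoglobin genes and 2 other red cell genes. They were taken by symbol: the definitive alpha-globins Hba-a1 and Hba-a2, the embryonic alpha-like Hba-x, the definitive beta-globins Hbb-bs and Hbb-bt, the embryonic beta-like Hbb-y and Hbb-bh1, the heme enzyme gene Alas2, and the anion exchanger gene Slc4a1. Each symbol matched 1 row in the gene table of each library, so 9 of 43346 listed Ensembl genes are described.

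Hemoglobin is a tetramer of a pair of alpha-like and a pair of beta-like chains, each holding a heme. In the mouse embryo, primitive red cells from the yolk sac use the embryonic chains, while definitive red cells from the fetal liver use the adult chains. Heme synthesis in red cells starts with the enzyme encoded by Alas2, and the product of Slc4a1 (band 3) exchanges chloride for bicarbonate across the red cell membrane. Red cells reach the brain through its blood vessels.

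The study sequenced total RNA of forebrain from healthy B6NCrl mouse embryos at 16.5 days of gestation. It holds 1 group with 2 biological replicates, each a pool of male and female embryos; replicate 2 came from 41 embryos and the number in replicate 1 was not given in its labels. RNA above 200 nt was used, with 10 ng as starting material and added ERCC spike-in RNAs. Replicate 2 held 26957198 and replicate 1 held 31211128 expected counts on genes. There was no treatment, second age or second tissue, so the values below describe levels within the libraries and the spread between the pools, and no p-value was computed. Levels are in TPM, a measure of transcript abundance per length, and are given as mean ± SD (n = 2). As a check of the tissue label, all 6 forebrain neural markers lay above 10 TPM in both libraries, from Dlx2 at 39.9 ± 3.29 TPM to Tubb3, a neuronal tubulin, at 1609 ± 83.7 TPM.

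The globins lie in 2 clusters, given here in GRCm38 coordinates. The alpha cluster on the plus strand of chromosome 11 begins with Hba-x (32276400 to 32278116), followed by Hba-a1 (32283511 to 32284465) and Hba-a2 (32296489 to 32297298). The beta cluster on the minus strand of chromosome 7 reads, in the direction of transcription, Hbb-y (103851749 to 103853216), Hbb-bh1 (103841637 to 103843164), Hbb-bs (103826534 to 103828096) and Hbb-bt (103812524 to 103813996). Both clusters thus run from embryonic to definitive genes. Slc4a1 also lies on chromosome 11 (minus strand, 102348824 to 102366203), and Alas2 lies on chromosome X (plus strand, 150547375 to 150570638).

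The definitive copies are almost identical, which bears on how far their levels can be separated. The coding sequences of Hba-a1 and Hba-a2, of 429 bases each, differ at 1 base, C381T, counted from 1 at the first base of the coding sequence, with the Hba-a1 base first. Those of Hbb-bs and Hbb-bt, of 444 bases each, also differ at 1 base, C417T, with the Hbb-bs base first. The 60 coding bases around each difference are shown because they hold the single letter that tells the coding sequences apart, printed in capitals.
Hba-a1, chr11:32284313-32284372, plus strand: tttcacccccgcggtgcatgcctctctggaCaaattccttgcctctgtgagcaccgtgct
Hba-a2, chr11:32297130-32297189, plus strand: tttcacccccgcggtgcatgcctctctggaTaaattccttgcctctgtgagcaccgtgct
Hbb-bs, chr7:103826665-103826724, minus strand: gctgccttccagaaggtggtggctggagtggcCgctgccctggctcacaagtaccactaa
Hbb-bt, chr7:103812656-103812715, minus strand: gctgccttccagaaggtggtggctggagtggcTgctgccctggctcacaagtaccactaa
The embryonic genes are far less alike. Hba-x was 62.0% identical to Hba-a1 over the coding sequence, Hbb-y 74.3% and Hbb-bh1 74.1% identical to Hbb-bs, and Hbb-y 76.4% identical to Hbb-bh1. Cut into windows of 100 bases, the GENCODE M21 transcripts of Hba-x, Alas2 and Slc4a1 shared no window with another gene. In contrast, the coding transcript of Hba-a2 had 116 of 455 windows (25.5%) found in no other gene, that of Hba-a1 had 261 of 600 (43.5%) and that of Hbb-bt had 273 of 604 (45.2%). Levels of the definitive copies taken singly are therefore uncertain, and sums over copies are used for comparisons between classes.

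Upstream sequence was matched from RefSeq (GRCm38.p6) for 7 of the 9 genes, and stretches for a definitive alpha, a definitive beta and an embryonic beta gene are shown because these classes stood far apart in level. Each starts 250 bases before the RefSeq start, and those of Hba-a2 and Hbb-bt stop before bases that GENCODE M21 annotates as exon. The Hbb-y stretch stops earlier, at 38 bases upstream, because its deposited transcript is longer, at 661 against 633 bases in GENCODE M21. Capitals mark letters searched on both strands. These were the CACCC box (reverse complement GGGTG), the GATA motif GATAA (reverse complement TTATC), the CCAAT box (reverse complement ATTGG) and the TATA motif TATAA (reverse complement TTATA). The final capitals in Hbb-bt are an ATTGG and the first letters of a CCAAT that follows it directly and runs past the printed end.
Hba-a2, chr11:32296242-32296488, plus strand: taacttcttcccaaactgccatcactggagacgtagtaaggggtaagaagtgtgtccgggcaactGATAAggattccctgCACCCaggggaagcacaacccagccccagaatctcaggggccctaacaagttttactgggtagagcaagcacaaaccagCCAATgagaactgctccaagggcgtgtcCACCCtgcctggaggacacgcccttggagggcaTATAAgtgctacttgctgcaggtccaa
Hbb-bt, chr7:103813997-103814173, minus strand: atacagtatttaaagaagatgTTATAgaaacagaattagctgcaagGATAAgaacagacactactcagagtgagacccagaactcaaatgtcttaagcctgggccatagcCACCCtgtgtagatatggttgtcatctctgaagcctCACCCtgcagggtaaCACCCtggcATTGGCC
Hbb-y, chr7:103853245-103853457, minus strand: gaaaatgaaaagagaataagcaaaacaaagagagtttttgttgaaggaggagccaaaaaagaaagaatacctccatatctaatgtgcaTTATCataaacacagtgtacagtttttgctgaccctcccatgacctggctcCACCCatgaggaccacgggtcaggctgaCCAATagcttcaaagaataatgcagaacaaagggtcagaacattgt
Over the full 250 bases, CACCC and GATAA were found in 7 of the 7 upstream windows, whereas among 32851 windows of the same length CACCC occurred in 52.0% and GATAA in 22.6%. CCAAT occurred in Hba-a1, Hba-a2, Hbb-bs, Hbb-bt and Hbb-y and not in Hba-x or Alas2, against 33.8% of all windows. TATAA was found in 6 of the 7 windows, with Hbb-y as the exception, against 22.8% of all windows. In Alas2 it lay 203 to 207 bases upstream, overlapping a TTATA at 204 to 208. Each globin window with TATAA held it between 23 and 30 bases upstream, and Hbb-bt also held a TTATA at 225 to 229. The full windows include bases annotated as exon, up to 200 of 250 in Hba-x. Hba-a1 and Hba-a2 carried the same letters over 247 of 247 bases at an offset of 3 bases. These are matches of letters only, and the deposited data hold no measurement of factor binding.

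Among the alpha-like genes, the definitive genes were among the most abundant messages of the libraries and Hba-x was low. Hba-a2 had 5887 TPM in replicate 2 and 4612 TPM in replicate 1 (5249 ± 902 TPM), which placed it at rank 10 and rank 14 of all genes. Hba-a1 had 2225 TPM in replicate 2 and 1794 TPM in replicate 1 (2009 ± 304 TPM), at ranks 32 and 36. Hba-x, the zeta-like embryonic chain, had 8.03 TPM in replicate 2 and 9.44 TPM in replicate 1 (8.74 ± 0.997 TPM), from 83 and 120 expected counts. Hba-x was the globin with a lower TPM in replicate 2 than in replicate 1, whereas the other 6 globins were higher in replicate 2. In replicate 2 and replicate 1, Hba-a2 held 72.6% and 72.0% of the definitive alpha TPM, a ratio to Hba-a1 of 2.65 and 2.57. With protein-coding transcripts alone, a choice made after seeing the data, that ratio was 9.22 in replicate 2 and 11.4 in replicate 1. The deposited posterior SD of the count was the same for Hba-a1 and Hba-a2, 149 in replicate 2 and 143 in replicate 1, and was 0 for Hba-x.

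The beta-like genes had the same layout, with 1 embryonic gene present and the other close to the limit of detection. Hbb-bs had 3419 TPM in replicate 2 and 2692 TPM in replicate 1 (3056 ± 514 TPM), at ranks 19 and 27. Hbb-bt had 1830 TPM in replicate 2 and 1459 TPM in replicate 1 (1645 ± 262 TPM), at ranks 37 and 48. Hbb-bs held 65.1% of the definitive beta TPM in replicate 2 and 64.8% in replicate 1. With protein-coding transcripts alone it held 48.1% and 47.6%, so which copy was higher turned with the transcripts counted. Hbb-y, the epsilon-like embryonic chain, had 20.7 TPM in replicate 2 and 19.3 TPM in replicate 1 (20.0 ± 0.933 TPM), from 183 and 204 expected counts. Hbb-bh1, the other embryonic beta-like chain, had 0.37 TPM in replicate 2 and 0.21 TPM in replicate 1, from 3 and 2 expected counts. A count of 0 allows up to 3 counts, and Hbb-bh1 did not exceed that limit in either library. The posterior SD of the count was 195 in replicate 2 and 213 in replicate 1 for both Hbb-bs and Hbb-bt, and 0 for Hbb-y and Hbb-bh1.

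The red cell genes outside the globin clusters were far lower than the definitive globins. Alas2 had 43.7 TPM in replicate 2 and 32.9 TPM in replicate 1 (38.3 ± 7.65 TPM), from 1283 and 1126 expected counts. Slc4a1 had 2.39 TPM in replicate 2 and 1.65 TPM in replicate 1 (2.02 ± 0.523 TPM), from 157 and 138 expected counts. The deposited posterior mean TPM of Slc4a1 was higher, at 4.08 in replicate 2 and 2.86 in replicate 1. From the highest gene TPM to the lowest, both libraries had the order Hba-a2, Hbb-bs, Hba-a1, Hbb-bt, Alas2, Hbb-y, Hba-x, Slc4a1, Hbb-bh1. In this order the 2 values of Hbb-bt overlapped those of its neighbour Hba-a1, while no other neighbours overlapped. With protein-coding transcripts alone, the order of the definitive globins was Hba-a2, Hbb-bt, Hbb-bs, Hba-a1 in both libraries. Of the 9 genes, 8 reached 1 TPM in both libraries, against 34.1% of all listed genes and 60.7% of protein-coding genes.

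**Figure D1:**
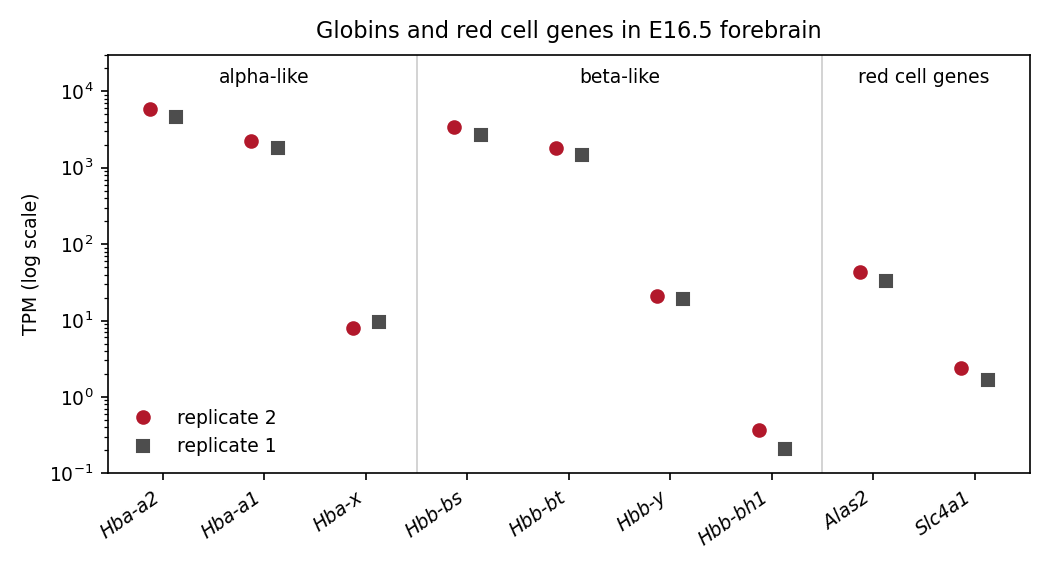
TPM on a log axis of the 9 genes in replicate 2 (red circles) and replicate 1 (grey squares), each point 1 library. The definitive globins lay between 1459 and 5887 TPM, Hbb-y and Hba-x between 8.03 and 20.7 TPM, and Hbb-bh1 under 1 TPM.

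Embryonic chains made up a small part of the globin message on both sides, and the definitive excess was larger for alpha than for beta. Summed definitive alpha TPM exceeded Hba-x 1010-fold in replicate 2 and 679-fold in replicate 1, a log2 ratio of 9.69 ± 0.41. Summed definitive beta TPM exceeded Hbb-y plus Hbb-bh1 250-fold in replicate 2 and 212-fold in replicate 1, a log2 ratio of 7.85 ± 0.16. The alpha ratio lay above the beta ratio in both libraries by more than the SD of either. Hba-x supplied 83 of 58210 alpha-like counts in replicate 2 (0.143%, exact Clopper-Pearson 95% interval 0.114 to 0.177%). In replicate 1 it supplied 120 of 54353 (0.221%, 0.183 to 0.264%). The 2 intervals did not overlap, and with 1 library per pool they carry no measure of the variation between further pools. For the beta-like genes the embryonic share was 186 of 45367 counts in replicate 2 (0.410%, 0.353 to 0.473%) and 206 of 42394 in replicate 1 (0.486%, 0.422 to 0.557%), with overlapping intervals. These intervals cover counting error only, since amplified reads are not independent molecules.

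Between the embryonic chains, Hbb-y was above Hba-x in both pools. The ratio of Hbb-y to Hba-x was 2.57 in replicate 2 and 2.05 in replicate 1 by TPM. The order was thus opposite to that of the definitive chains, where alpha exceeded beta. Embryonic globins as a whole summed to 29.1 TPM in replicate 2 and 29.0 TPM in replicate 1, which are nearly equal sums, while definitive globins summed to 13361 TPM in replicate 2 and 10557 TPM in replicate 1.

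Alpha-like and beta-like totals kept nearly the same proportion in the 2 pools. Alpha-like TPM summed to 8120 in replicate 2 and 6415 in replicate 1, and beta-like TPM summed to 5270 in replicate 2 and 4171 in replicate 1. The alpha to beta ratio was 1.54 in both replicate 2 and replicate 1, a log2 ratio of 0.62 ± 0.0018. By counts, the log2 ratio in replicate 2 minus that in replicate 1 was 0.0011. The interval of -0.018 to 0.020 covers counting error of the beta-like counts alone. It leaves out that of the alpha-like counts and is therefore too narrow. The size of the excess depended on which transcripts were counted: with protein-coding transcripts alone it was 1.84 in replicate 2 and 1.79 in replicate 1. Without division by length, the mean log2 ratio was 0.36. Together the 7 globins held 1.34% of TPM in replicate 2 and 1.06% in replicate 1, and 0.384% and 0.310% of the expected counts on genes.

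Much of the TPM of Hba-a1 and Hbb-bs was assigned by the authors' quantification to transcripts annotated as retaining an intron. For Hba-a1, the retained-intron transcript held 71.3% of the gene's TPM in replicate 2 and 77.5% in replicate 1, and the coding transcript held 28.7% and 22.5%. Hba-a2 has an annotated transcript of the same structure, which held 0.01% in replicate 2 and 0% in replicate 1. Both retained-intron transcripts have 494 bases, of which 381 are shared with coding-transcript exons of the same gene and 113 lie in the first intron, and they differ from each other at 1 base. How shared reads were divided between these near-identical transcripts was not tested, so the Hba-a1 level and its shares are uncertain. For Hbb-bs, the retained-intron transcript held 50.4% in replicate 2 and 50.8% in replicate 1, the longer coding transcript held 36.5% and 34.4%, and the shorter coding transcript held 13.0% and 14.9%. Hbb-bt, Hbb-y and Hbb-bh1 had 1 transcript each, and Alas2 had 73.2% and 76.5% on its first coding transcript. Reads over the retained intron itself are not resolved in these tables, so intron retention was not measured directly.

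**Figure D2:**
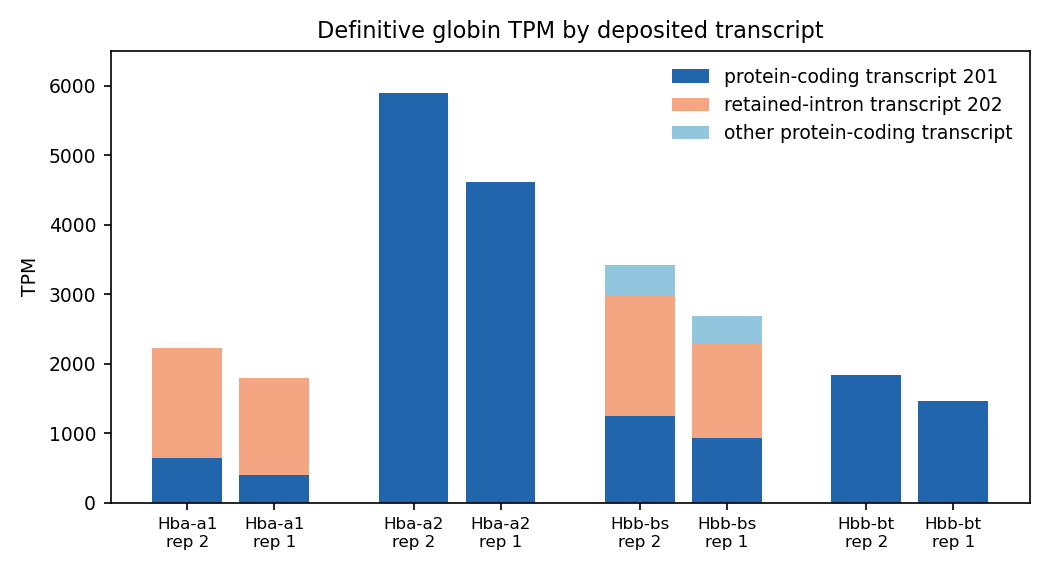
TPM of the 4 definitive globins by library, stacked by deposited transcript, with replicate 2 left of replicate 1. The retained-intron transcript made up most of Hba-a1 (1586 TPM in replicate 2, 1390 TPM in replicate 1) and about as much as the coding transcripts together in Hbb-bs, and is not visible in Hba-a2.

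With coding transcripts alone, the embryonic genes stayed far below the definitive ones. Hba-a1 then had 639 TPM in replicate 2 and 404 TPM in replicate 1. Hbb-bs then had 1695 TPM in replicate 2 against 1325 TPM in replicate 1. The definitive alpha excess over Hba-x was 813-fold in replicate 2 and 531-fold in replicate 1, and the definitive beta excess over the embryonic beta genes was 168-fold and 142-fold. Definitive transcripts thus exceeded embryonic ones more than 100-fold in each library under both ways of counting.

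**Figure D3:**
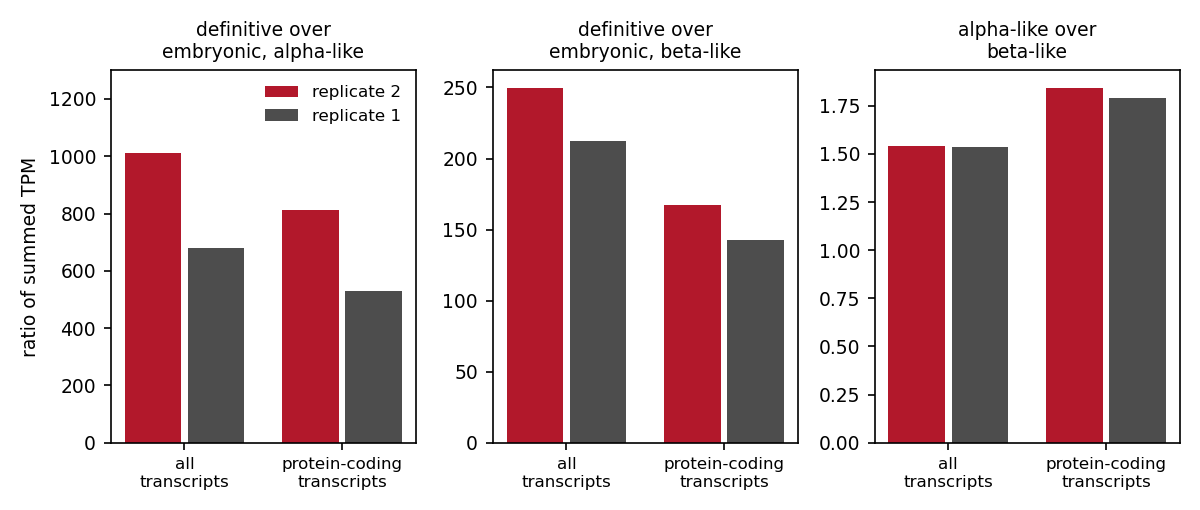
Ratios of summed TPM within each library on linear axes from 0, for definitive over embryonic alpha-like, definitive over embryonic beta-like, and alpha-like over beta-like genes, with all transcripts and with protein-coding transcripts. Replicate 2 is red and replicate 1 is grey; the alpha to beta bars are level at 1.54 with all transcripts.

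The definitive globins, Alas2 and Slc4a1 were higher in replicate 2 than in replicate 1, by less than 2-fold. Relative to all genes (counts scaled by trimmed mean, TMM), the log2 ratio of replicate 2 over replicate 1 was 0.34 for Hba-a2, with a 95% counting interval of 0.32 to 0.36. It was 0.33 (0.30 to 0.37) for Hba-a1, 0.35 (0.32 to 0.37) for Hbb-bs and 0.31 (0.28 to 0.34) for Hbb-bt. As gene totals, the 4 definitive globins thus had similar ratios, but near-identical copies share reads and do not give separate evidence. With protein-coding transcripts alone, the log2 ratio of TPM was 0.66 for Hba-a1, 0.35 for Hba-a2, 0.36 for Hbb-bs and 0.33 for Hbb-bt. Alas2 had a log2 ratio of 0.42 (0.31 to 0.54) and Slc4a1 of 0.42 (0.08 to 0.76), both with the same sign as the definitive globins. The embryonic genes had intervals that included 0, at 0.08 (-0.22 to 0.37) for Hbb-y and -0.29 (-0.72 to 0.12) for Hba-x. Under spike-in scaling these ratios were 0.63 for Hbb-y and 0.26 for Hba-x, both above their intervals. That scaling also moved the median of all tested genes to 0.56. Hbb-bh1 had too few counts for a ratio to be read.

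A gene was called different between pools when it had a mean of at least 50 counts, a ratio of at least 2-fold and a counting interval without 0. By that rule 0 of 8 members with enough counts were called, beside 1.38% of 13927 genes. Counting intervals lay above 0 for 6 of the 8 genes, beside 26.5% of all tested genes, and below 0 for 0 of 8, beside 24%. The median log2 ratio of these 8 genes was 0.33, beside 0.01 over all tested genes. These 8 genes share their libraries and are not 8 separate measurements of the pools. In bulk tissue, fewer cells of a type and less RNA per cell cannot be told apart.

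**Figure D4:**
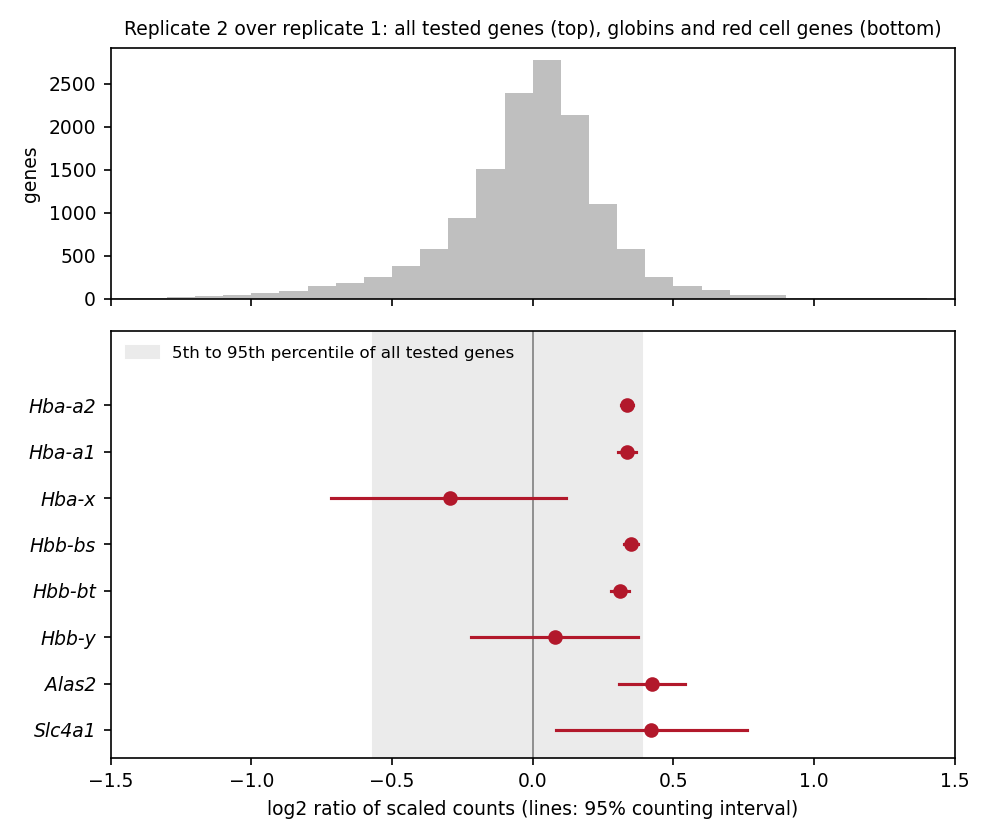
Log2 ratio of replicate 2 over replicate 1 of scaled counts, as a histogram of the 13927 tested genes (top) and for the 8 genes with enough counts (bottom), with 95% counting intervals as lines and the 5th to 95th percentile of all tested genes shaded. The definitive globins sat between 0.31 and 0.35 and Alas2 and Slc4a1 at 0.42, while the intervals of Hba-x and Hbb-y crossed 0.

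Markers of other cells that blood and vessels hold were set beside this difference, and their part in it was not tested. Summed TPM was 39.2 in replicate 2 and 27.3 in replicate 1 for 5 platelet and megakaryocyte genes, of which Pf4, a platelet chemokine, supplied 34.5 and 20.8. Pf4 thus made up most of both sums, and which cells its RNA came from was not tested. Itga2b, the platelet fibrinogen receptor chain, went the other way and had 3.06 TPM in replicate 2 against 5.48 TPM in replicate 1. From 53 and 86 counts, its log2 ratio was -0.46, with an interval of -0.985 to 0.047 that included 0. Ppbp had 1.23 and 0.65 TPM in the same order of pools, and Gp1ba was lowest, with 0.15 and 0.12 TPM. The 7 blood leukocyte genes summed to 11.1 TPM in replicate 2 against 3.70 TPM in replicate 1. In replicate 2 against replicate 1, the neutrophil genes S100a8 and S100a9 had 28 against 11 and 19 against 5 counts, Ngp had 18 against 9 and Mpo 16 against 7, and the T cell gene Cd3e had 0 in both. Ltf, also a neutrophil gene, had 10 counts in each library, and the B cell gene Cd79a had 3 against 4. None of these 7 reached the 50 counts needed for a call. The 5 endothelial genes summed to 147 TPM in replicate 2 against 122 TPM in replicate 1. Intervals lay above 0 for 5 of 5, beside 26.5% of all tested genes. Cldn5, a tight junction gene, led with 89.6 against 75.7 TPM, followed by Kdr with 22.0 against 18.8 TPM and Pecam1 with 15.5 against 12.2 TPM, and Tek had the lowest mean, with 8.81 against 8.03 TPM. The forebrain neural markers summed to 3673 TPM in replicate 2 against 3391 TPM in replicate 1. Of these 6 markers, 4 also had intervals above 0 and 1 had an interval below 0. Tubb3 was lower in replicate 2 and the other 5 were higher, among them Fabp7 with 1456 against 1172 TPM and Neurod6 with 489 against 389 TPM.

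Heme synthesis was represented at each step, and Alas2 stood beside its housekeeping counterpart Alas1. Alas1, which encodes the first enzyme of the pathway in most tissues, had 56.7 TPM in replicate 2 and 54.0 TPM in replicate 1 (55.4 ± 1.91 TPM). The ratio of Alas2 to Alas1 was 0.770 in replicate 2 and 0.608 in replicate 1, which is -0.55 ± 0.24 on the log2 scale. Alas2 was thus below Alas1 in both pools. Of the 9 heme synthesis genes, Alas2 included, 9 reached 1 TPM and 8 reached 10 TPM in both libraries. Their median was 39.7 TPM. Alad, the second enzyme, was highest at 57.2 ± 1.13 TPM, Urod, the uroporphyrinogen decarboxylase, had 51.1 ± 1.82 TPM, Fech, the ferrochelatase that inserts iron, had 31.3 ± 1.61 TPM, and Cpox, the coproporphyrinogen oxidase, was lowest at 6.66 ± 1.22 TPM. Their median log2 ratio between pools was 0.03, with intervals above 0 for 3 of 9 (Alas2, Alas1 and Cpox) and below 0 for 1 (Uros, at -0.15). None of the 9 was called, beside 1.38% of all tested genes. Over all tested genes, 52.1% were higher in replicate 2, 26.5% had intervals above 0 and 24% had intervals below 0. The same shares stand beside the counts of the red cell lists that follow.

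Transport and breakdown of heme and mitochondrial iron had a broad set of transcripts. All 16 listed genes reached 1 TPM in both libraries. Their median was 29.0 TPM. Glrx5, which serves iron-sulfur cluster assembly, had 129 ± 7.11 TPM, Slc25a39, a mitochondrial carrier, had 116 ± 3.59 TPM, and Tmem14c, which moves porphyrin in mitochondria, had 90.6 ± 0.94 TPM. Flvcr2 was lowest at 3.81 ± 0.445 TPM. The erythroid iron importer of mitochondria Slc25a37 had 6.93 ± 0.552 TPM and the inducible heme oxygenase Hmox1 had 6.66 ± 0.17 TPM. Their median log2 ratio between pools was -0.0015, with 3 intervals above 0, 4 below and 0 genes called.

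The membrane group that Slc4a1 belongs to was split by level. Of 20 membrane and skeleton genes, 12 reached 1 TPM and 5 reached 10 TPM in both libraries, and the median was 1.64 TPM. The highest were Cd24a at 825 ± 88.9 TPM, Add2 (beta-adducin) at 123 ± 1.47 TPM and Epb41 (protein 4.1) at 65.7 ± 12.6 TPM, which are genes that neural tissue also uses. Partners of band 3 in the red cell membrane were far below these 3. Ank1, the ankyrin that anchors it, had 1.10 TPM in replicate 2 against 1.82 TPM in replicate 1. Epb42 (protein 4.2) had 0.08 against 0.19 TPM, from 4 and 10 counts. Rhag, of the Rh complex, had the lowest mean, with 0.06 TPM in replicate 2 against 0.07 TPM in replicate 1, where Icam4 was lower at 0.05 TPM. Ank1 had a lower level in replicate 2, with a log2 ratio of -0.68 (-1.01 to -0.36), opposite in sign to the 0.42 of Slc4a1. Over the 12 tested genes the median was 0.04, with 5 intervals above 0, 5 below and 0 called, and Ermap was past 2-fold on 8 and 20 counts, under the 50 needed.

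Regulators of red cell formation were low where they are specific to the lineage. Gata1, the master factor of erythroid cells, had 1 count in each library and was lowest with Gfi1b, which had 2 counts in replicate 2 and 0 in replicate 1. Klf1, the factor that activates adult beta-globin, had 14 counts in replicate 2 and 19 in replicate 1, or 0.62 and 0.71 TPM. Of 12 factors, 6 reached 1 TPM and 4 reached 10 TPM in both libraries, led by Ldb1 at 109 ± 4.35 TPM, Klf3 at 16.7 ± 0.141 TPM and Lmo2 at 16.7 ± 0.304 TPM. Among 6 tested factors 3 had a higher and 3 a lower ratio, 1 interval lay above 0, 2 lay below and 0 were called. Tal1 was past 2-fold on 33 and 16 counts.

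Factors known for switching globin genes were measured well in this tissue. Of 8 switching factors 8 reached 1 TPM, with Bcl11a at 207 TPM in replicate 2 against 196 TPM in replicate 1, the chromatin remodeller Chd4 at 65.0 ± 0.495 TPM and Sox6 at 19.2 ± 1.06 TPM. Lin28b, known in human red cells for keeping the fetal globin program, was lowest with 1.22 TPM in replicate 2 against 2.15 TPM in replicate 1, or a log2 ratio of -0.83 (-1.19 to -0.49). Of these 8 genes, 4 were higher and 4 lower in replicate 2, with 1 interval on each side of 0 and 0 called. Bcl11a and Sox6 also act in neurons, and whole-tissue values do not say which cells their RNA came from.

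Cytosolic and maturation genes of red cells ranged widely. Of 19 matched genes 14 reached 1 TPM and 10 reached 10 TPM in both libraries, with Prdx2, a peroxiredoxin abundant in red cells and neurons, at 1120 ± 49.8 TPM, Bnip3l, a mitophagy receptor, at 456 ± 32.4 TPM and Mkrn1 at 203 ± 0.488 TPM. Car1, a red cell carbonic anhydrase, had 0 counts in both libraries, which allows up to 0.234 TPM in replicate 2 and 0.196 TPM in replicate 1. Tfrc, the transferrin receptor, had 31.6 TPM in replicate 2 and 27.9 TPM in replicate 1. Among the 12 tested, 10 were higher in replicate 2, beside 52.1% of all tested genes. Of their intervals, 5 lay above 0 and 1 lay below, beside 26.5% and 24%, and 0 genes were called. Trib3 was past 2-fold on 20 counts in replicate 2 and 51 in replicate 1, and Trim58 had 0 and 3 counts.

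**Figure D5:**
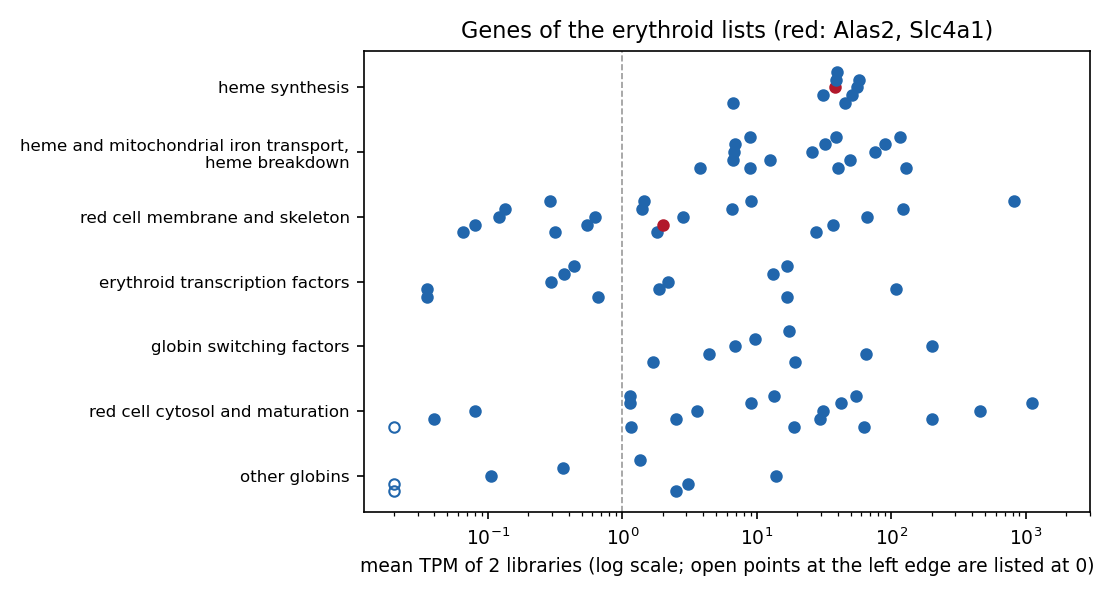
Mean TPM of the 2 libraries on a log axis for each gene of 7 lists of red cell and globin genes, each point 1 gene and the dashed line 1 TPM. The heme synthesis genes sat between 6.66 and 57.2 TPM with Alas2 (red) among them, and Slc4a1 (red) sat at 2.02 TPM in a membrane list that ran from Rhag to Cd24a.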

How the data were processed

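Total RNA of 2 E16.5 forebrain pools was analysed from 1 gene table and 1 transcript table per library. Per the notes deposited with the files, the authors aligned the reads to mm10 and used GENCODE M4 transcripts, with replicates kept apart. Which programs did this is not given in the sources used here. Per the file headers, the authors deposited expected counts (estimated reads, not normalized) per gene and transcript. The deposited TPM values are scaled to a fixed sum over all listed features, spike-ins included, which made up 4.10% of TPM in replicate 2 and 5.93% in replicate 1. FPKM (per kilobase of effective length) was deposited as well, per the file headers. The authors also deposited each transcript's percent of its gene, and a score for uncertainty, the posterior SD of the count.

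Gene names, biotypes and positions were taken from GENCODE M21 (GRCm38, the assembly of mm10), which matched 42462 of 43346 identifiers. Of 115 genes in 11 lists, 114 matched, and Ahsp did not. Upstream sequences came from RefSeq (GRCm38.p6).

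Expected counts were rounded for TMM scaling in edgeR 4.0.16 (R 4.3.3). Log2 ratios are replicate 2 over replicate 1 with a prior count of 0.5 and exact Clopper-Pearson 95% counting intervals. The procedure was tested on simulated counts drawn with counting error alone, so that test does not cover variation between pools or from amplification. Other steps used Python 3.11.15, numpy 2.4.6, pandas 2.3.3, scipy 1.17.1 and matplotlib 3.10.9. Alternatives were DESeq2 1.42.0 size factors, total counts, spike-in scaling, posterior means, FPKM, other minimums and pseudocounts, and each replicate left out; restriction to protein-coding transcripts was chosen after seeing the data.

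The 9 genes and the lists were chosen with earlier results of these data known. Genes named were the 9, the 3 highest and the lowest of each list, other globins, and list genes past 2-fold; the other list genes named were chosen after their values were seen. The replicates are separate pools, and each SD measures the spread between these pools alone. Some list genes are not reported here by name.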

Additional observations from a re-analysis of the deposited data

How the results depend on the processing

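Hbb-bs over Hbb-bt, a log2 ratio of 0.89, turned to -0.13 with protein-coding transcripts, and Hba-a2 over Hba-a1, 1.38, moved to 3.36. The log2 ratio of the 7 globins between pools, 0.33, was 0.31 with total counts and 0.89 with spike-in scaling, which moved the median of all tested genes to 0.56. The definitive over embryonic log2 ratio was 9.14 for alpha when counts were not divided by length and 7.27 for beta with protein-coding transcripts; without one replicate it ranged from 9.41 to 9.98 and from 7.73 to 7.96. Alpha over beta was 0.36 by counts and 0.86 with protein-coding transcripts, and 0.62 without either replicate. The globin share was 0.347% of counts, and 1.06 to 1.34% of TPM without one replicate. Slc4a1 over Alas2, -4.25, was -3.45 with posterior means, -3.70 with a pseudocount of 1 TPM, and -4.32 to -4.19 without one replicate; Alas2 over Alas1 ranged from -0.72 to -0.38. Genes 2-fold apart, 192, numbered 475 with a minimum of 20 counts, 38 with 200, 1103 with none and 535 with spike-in scaling. List genes at 1 TPM, 82, numbered 83 to 86 without one replicate. Of 184 alternative values, 40 for these main results and 110 for single genes, sums and lists stayed within the replicate SD, the counting interval or, for counts of genes, 1.5 times. The values that stayed include ones without 1 replicate. For ratios and shares within a library, such values cannot fall outside the SD of 2 replicates. Their outcome was fixed in advance and does not measure stability. The cause of the shifts above was not tested. No paired analysis was possible because the series has 1 group and no replicate number is shared between groups. Depth limits Hbb-bh1, Gata1, Rhag and the leukocyte genes, among others with few counts.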

Other observations

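Globins outside the 9 genes were low or at 0. The theta-like genes of the alpha cluster were present at low level, with 3.47 TPM in replicate 2 against 2.71 TPM in replicate 1 for Hbq1b. Hbq1a had 1.12 against 1.58 TPM, from 8.92 and 15.0 counts. Hbb-bh2, which lies between Hbb-bh1 and Hbb-bs, had 0 counts in both libraries, which allows up to 0.552 TPM in replicate 2 and 0.463 TPM in replicate 1. Hbb-bh3, Hbb-bh0 and Hba-ps4 were also at 0 counts in both. For the short Hbb-bh0 this allows up to 6.35 TPM in replicate 2 and 5.33 TPM in replicate 1. For Hbb-bh3 it allows up to 0.942 and 0.791 TPM. Cygb (cytoglobin) was the highest of the globins outside the 9 genes, with 14.0 TPM in replicate 2 against 13.8 TPM in replicate 1. Ngb (neuroglobin), an oxygen-binding globin of neurons, had 43 counts in replicate 2 and 84 in replicate 1. Its log2 ratio was -0.72 with a counting interval of -1.30 to -0.18, opposite in sign to the definitive globins. Mb (myoglobin) had 7 and 4 counts, and Adgb was the lowest detected at 0.11 and 0.10 TPM. Of the 8 listed genes of this group 4 reached 1 TPM in both libraries, and neither of the 2 with enough counts was called.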
